A study of Homo sapiens with 8 samples.

Results

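The replication-dependent histone genes of chromosome 6p22 were examined in ATAC-seq peak lists of HEK293T lines with mutant EZH2. They were chosen by name and place, as the protein-coding genes of the GENCODE annotation (GRCh38) on chromosome 6 between 25 and 29 Mb whose symbols start with H1-, H2AC, H2BC, H3C or H4C. This gave 55 of 19970 protein-coding genes on chromosomes 1 to 22 and X. The 55 genes comprise 6 linker histone H1 genes, 12 H2A genes, 15 H2B genes, 10 H3 genes and 12 H4 genes, and 44 other protein-coding genes lie in the same interval.

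ATAC-seq cuts accessible chromatin with the Tn5 transposase, and a peak marks a stretch where the cuts pile up above the local background. HEK293T is a human embryonic kidney line. The 4 stable lines were made by lentiviral infection with an EZH2 cDNA, either WT, H689A/F667I, A677G or Y641F, were selected with blasticidin and gave 2 libraries each. In the study's terms A677G and Y641F are gain-of-function (GOF) forms and H689A/F667I is a loss-of-function (LOF) form. Every line, WT included, therefore holds an added EZH2 cDNA beside the cell's own EZH2 gene. Each genotype is 1 line, described in the methods as a monoclonal population, so genotype and clone cannot be told apart, and the peak lists offer no check of the EZH2 allele itself.

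Replication-dependent histone genes are the short, mostly intronless genes that supply the nucleosome during S phase. H2A, H2B, H3 and H4 form the core around which DNA is wrapped, and H1 binds the linker between cores. Their mRNAs end in a stem-loop in place of a poly(A) tail, and the factor NPAT, a target of cyclin E/CDK2, switches them on at a nuclear body built around the gene cluster. EZH2, the catalytic subunit of Polycomb repressive complex 2, methylates lysine 27 of H3, so the H3 genes encode its substrate.

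The libraries held 26350 to 64923 peaks, of which 166 to 224 lay in the 25 to 29 Mb interval. WT had the most peaks and Y641F the fewest, and read depth is unknown. Of 5 genes taken as marks of HEK293T and embryonic kidney, LHX1 and NEFM had a promoter peak in all 8 libraries, GATA3 in 3, and PAX2 and EYA1 in none. Among genes of other cell types, the leukocyte gene PTPRC, the hepatocyte gene ALB and the cardiomyocyte gene MYH6 had none, whereas the podocyte gene NPHS1 had a peak in all 8.

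The promoters of the family are shown first, because a gene with a peak and one without can have nearly the same promoter. A script searched the RefSeq promoters (GRCh38.p14, 250 bases before to 50 after the start, 1 per gene, 50 of the 55 genes matched) on both strands for 5 motifs. TATAAA, the TATA box, was in 68.0% of the histone promoters and in 11.5% of all 35116 promoters. CCAAT, the NF-Y box, was in 86.0% against 34.6%. ATTTGCAT, the octamer bound by OCT-1 (POU2F1), was in 42.0% against 1.77%, and among the histone promoters it was found in those of H2A and H2B alone, in 9 of 11 and 12 of 15. AAACACA, the H1 box, was in all 6 H1 promoters and in no other member, against 5.64% of all promoters. GGTCCG, a core of the H4 promoter site of HINFP, was in 9 of 10 H4 promoters and in 1 H3 promoter, that of H3C7, against 11.3% of all promoters. These motifs may overlap each other in the sequence. Where an H2A gene faces an H2B gene, as at H2AC1 and H2BC1, their promoters largely overlap. One site can then count for both genes, so these counts are not independent. Position within the promoter was not considered, and near variants of a motif were not counted. A match in this window is a description and shows no binding.

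The 4 pairs below set a gene with a peak in every library beside one of its type with none. H4C11 and H4C12 were chosen after the values were seen, as the most alike pair of all promoters compared, and H2AC13 and H2AC14 as the next. H1-2 and H1-5, and H3C2 and H3C3, show the H1 and H3 layouts. Capitals mark the 5 motifs on either strand.
H4C11, peak in all 8 libraries, chr6:27823842-27824141, plus strand: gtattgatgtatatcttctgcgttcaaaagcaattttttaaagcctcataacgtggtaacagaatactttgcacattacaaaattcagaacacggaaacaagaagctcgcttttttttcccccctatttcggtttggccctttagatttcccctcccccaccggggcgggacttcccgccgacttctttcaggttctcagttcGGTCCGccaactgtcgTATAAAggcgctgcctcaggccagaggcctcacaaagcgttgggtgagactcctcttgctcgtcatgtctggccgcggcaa
H4C12, no peak in any, chr6:27831511-27831810, minus strand: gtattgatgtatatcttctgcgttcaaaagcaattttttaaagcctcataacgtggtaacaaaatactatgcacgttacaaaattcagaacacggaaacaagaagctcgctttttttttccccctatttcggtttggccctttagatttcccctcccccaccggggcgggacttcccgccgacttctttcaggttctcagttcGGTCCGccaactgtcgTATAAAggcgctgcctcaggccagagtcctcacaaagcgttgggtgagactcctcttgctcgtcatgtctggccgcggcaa
H2AC13, peak in all 8 libraries, chr6:27807923-27808222, plus strand: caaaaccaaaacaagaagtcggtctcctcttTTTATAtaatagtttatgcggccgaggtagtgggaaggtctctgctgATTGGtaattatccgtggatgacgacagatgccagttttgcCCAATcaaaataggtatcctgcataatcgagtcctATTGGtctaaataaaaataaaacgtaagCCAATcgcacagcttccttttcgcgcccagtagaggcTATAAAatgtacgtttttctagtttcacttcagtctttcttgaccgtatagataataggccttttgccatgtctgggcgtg
H2AC14, no peak in any, chr6:27814728-27815027, minus strand: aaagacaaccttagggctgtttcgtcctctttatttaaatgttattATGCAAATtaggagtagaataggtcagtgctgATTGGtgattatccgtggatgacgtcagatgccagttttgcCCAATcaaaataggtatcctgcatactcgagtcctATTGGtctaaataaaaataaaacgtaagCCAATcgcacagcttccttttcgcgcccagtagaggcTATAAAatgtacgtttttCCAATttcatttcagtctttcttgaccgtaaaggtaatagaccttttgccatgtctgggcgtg
H1-2, peak in all 8 libraries, chr6:26056421-26056720, minus strand: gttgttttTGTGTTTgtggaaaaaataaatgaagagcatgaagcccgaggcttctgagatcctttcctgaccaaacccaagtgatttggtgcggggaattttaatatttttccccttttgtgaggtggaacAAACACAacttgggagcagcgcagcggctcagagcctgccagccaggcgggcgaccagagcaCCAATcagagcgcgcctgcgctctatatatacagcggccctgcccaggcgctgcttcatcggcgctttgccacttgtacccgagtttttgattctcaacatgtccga
H1-5, no peak in any, chr6:27867539-27867838, minus strand: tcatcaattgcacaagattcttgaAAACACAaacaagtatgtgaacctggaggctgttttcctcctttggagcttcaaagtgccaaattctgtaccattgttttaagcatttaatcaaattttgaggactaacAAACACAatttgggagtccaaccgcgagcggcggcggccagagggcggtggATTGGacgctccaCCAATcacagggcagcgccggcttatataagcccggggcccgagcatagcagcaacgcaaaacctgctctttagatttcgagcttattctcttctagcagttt
H3C2, peak in all 8 libraries, chr6:26032050-26032349, minus strand: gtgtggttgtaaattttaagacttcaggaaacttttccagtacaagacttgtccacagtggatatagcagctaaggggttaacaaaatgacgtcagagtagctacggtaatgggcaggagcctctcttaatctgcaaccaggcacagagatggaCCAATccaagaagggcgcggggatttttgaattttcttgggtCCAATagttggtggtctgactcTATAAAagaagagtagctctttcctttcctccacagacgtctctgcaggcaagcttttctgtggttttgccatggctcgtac
H3C3, no peak in any, chr6:26045134-26045433, plus strand: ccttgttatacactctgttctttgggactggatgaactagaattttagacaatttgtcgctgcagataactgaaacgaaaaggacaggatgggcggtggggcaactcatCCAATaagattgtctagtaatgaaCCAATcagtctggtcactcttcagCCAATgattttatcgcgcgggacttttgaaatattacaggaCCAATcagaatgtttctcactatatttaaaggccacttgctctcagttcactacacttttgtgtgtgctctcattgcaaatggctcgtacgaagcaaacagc

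The H4C11 and H4C12 promoters were identical at 295 of 300 positions. The 5 differences, counted from 1 at the 5′ end with the H4C11 base first, were G62A, T69A, A75G, C119T and G246T, and none fell in a marked motif. H4C11 had a peak in all 8 libraries and H4C12 in none, with its nearest WT peak 5273 bp away. The H2AC13 and H2AC14 promoters had 263 identical positions of 300 when aligned with gaps, and again the first gene had a peak in all 8 libraries and the second in none. Reads from such near-identical genes can be placed at the wrong copy or discarded. Of the 32-base words in the window from 500 bp before to 1000 bp after the 5′ end, 57.6% occurred once in the genome at H4C11 and 67.5% at H4C12, among the lowest of the 55 genes. The values were 66.4% at H2AC13 and 69.5% at H2AC14. The calls at these 4 genes are thus less certain than the rest. Over all members, the median share of words found once was 93.9% for genes with peaks and 93.2% for genes without.

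**Figure D1:**
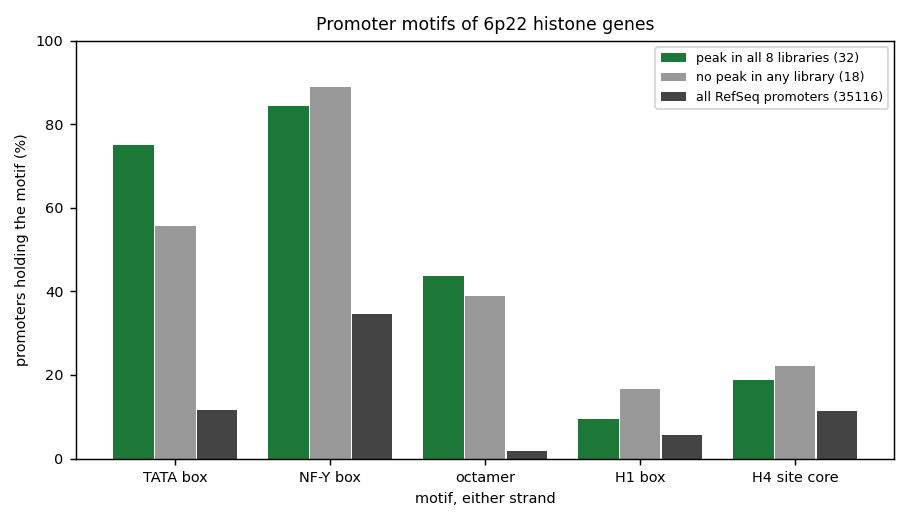
Share of promoters (percent, bars from 0) that hold each of 5 motifs on either strand, for the 32 6p22 histone genes with a peak in all 8 libraries, the 18 with none and all 35116 RefSeq promoters. The TATA box was in 75% of the first set and 55.6% of the second, the NF-Y box in 84.4% and 88.9%, and the octamer in 43.8% and 38.9%.

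Within types the shares differed more than in the pooled sets. The exact string TATAAA, on either strand and at any position, was in 5 of 5 H3 promoters with peaks and 1 of 3 without. In H3C6, with peaks, and H3C4, without, it was found on the opposite strand alone. The NF-Y box was in 0 of 5 H4 promoters with peaks and 3 of 5 without, and the octamer in 7 of 10 H2B promoters with peaks and 5 of 5 without. These counts are small and were not tested. Promoters were grouped by the state of their gene, so H2BC6 is among those with peaks, although no peak overlapped its RefSeq promoter. Median GC content was 42.3% in the 32 promoters with peaks and 45.2% in the 18 without, against 58.7% over all promoters.

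A peak was counted for a histone gene when it overlapped the gene or the 500 bp on either side. By this count, presence did not vary between libraries at any of the 55 genes. A peak was found in all 8 libraries at 36 genes, in none at 19, and in 1 to 7 libraries at 0. Over all protein-coding genes, taken from 500 bp before to 1000 bp after the 5′ end, 51.1% had a peak in all 8 libraries and 17.7% in 1 to 7. Of the other 44 genes of the interval, 24 had a peak in all 8, 12 in none and 8 in some. In each library 65.5% of the histone genes had a peak (95% Wilson interval 52.3 to 76.6%, counting error only), against 59.1 to 70.5% of the interval's other genes and 52.6 to 65.2% of all genes. Mixed presence, seen at 8 of the 44 neighbours, was thus seen at no histone gene, and the result was the same when the histone genes were taken by the window of the other genes, with 36 and 19. With 1000 bp on either side, 36 genes had a peak in all 8 libraries and 16 in none. No test was run over the members. A gene without a called peak is not shown to be without signal.

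**Figure D2:**
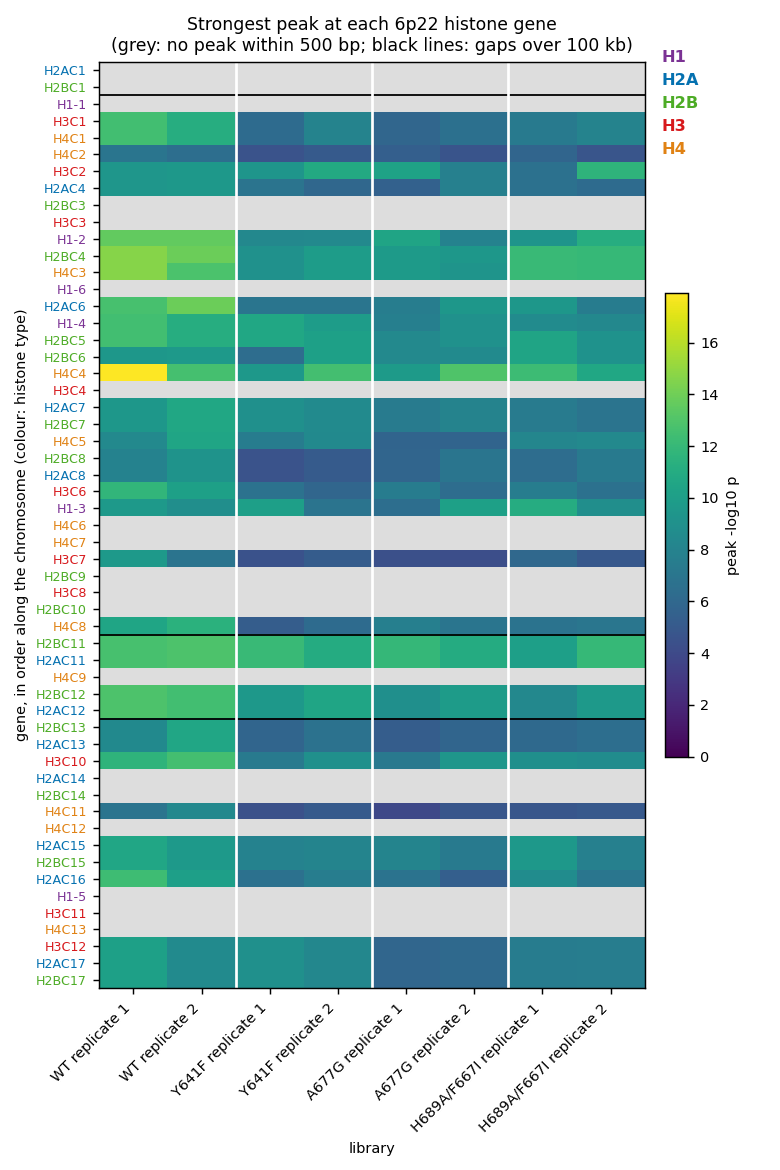
Strength (−log10 p, colour) of the strongest peak at each of the 55 histone genes (rows, in order along the chromosome, label colour giving the histone type) in the 8 libraries (columns), with grey for no peak and black lines at gaps of over 100 kb. The 36 coloured rows are filled in every library and the 19 grey rows in none, and the WT columns hold the brightest cells.

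The linker histone genes divided evenly. H1-2, H1-3 and H1-4 had a peak in every library. H1-1, H1-5 and the testis variant H1-6 had none. H1-5, a common somatic H1, lay 559 bp from the nearest WT peak, the shortest such distance among the genes without peaks.

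H2A and H2B genes carried a peak at 10 of 12 and 10 of 15 genes. The testis pair H2AC1 and H2BC1 had no peak in any library. H2AC14 and its partner H2BC14 also had none, nor had H2BC3, H2BC9 and H2BC10. All other H2A and H2B genes had a peak in all 8 libraries. For H2BC6, annotated over 12597 bp, that peak lay at the annotated start (chr6:26171748-26173602). Its RefSeq promoter (chr6:26183511-26183810) lay elsewhere in the gene and was overlapped by no peak.

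Of the H3 genes, which encode the EZH2 substrate, H3C1, H3C2, H3C6, H3C7, H3C10 and H3C12 had a peak in every library, and H3C3, H3C4, H3C8 and H3C11 had none. Of the H4 genes, 7 of 12 had one, and H4C6, H4C7, H4C9, H4C12 and H4C13 had none. The 19 genes without peaks lay at a median of 4551 bp and at most 12386 bp from the nearest WT peak, and 3 of them within 1 kb, so that genes with and without peaks were close neighbours.

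Along the chromosome the genes fell into 4 groups separated by over 100 kb, with 0 of 2, 22 of 32, 4 of 5 and 10 of 16 genes carrying a peak. There were 11 divergent pairs, whose 5′ ends lay 169 to 978 bp apart, mostly an H2A gene facing an H2B gene. Both genes of a pair had the same state in 10 of the 11, the exception being H3C7 and H2BC9, the pair farthest apart. The windows of such close genes overlap and 1 peak between them counts for both, so this agreement is partly fixed by the rule. In 7 pairs 1 peak was the strongest for both genes in all 8 libraries. Values of such genes are 1 measurement and not 2. Counts, shares and medians over the histone genes still take each gene once, so a shared peak enters them more than once. Merged over libraries, the 36 genes rested on 24 regions with a peak in all 8 libraries, 11 at a single gene, 12 at 2 genes and 1 at 3 genes.

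The peaks sat at the 5′ ends. At 29 of the 36 genes the strongest peak covered the annotated start site in all 8 libraries, and at H2AC8 and H2BC8 in none. H2BC6 is among the 29, although its RefSeq promoter lay away from the annotated start and had no peak. The H2AC8 peak began 93 and 39 bp inside the gene in the WT libraries, and it counts for H2BC8 through the 500 bp margin alone. The H3C7 peak covered the start site in 2 libraries and otherwise began inside the gene. H2BC4 is annotated over 37610 bp and so also takes in the H4C3 peak, which was its strongest in 6 libraries, all but WT replicate 2 and A677G replicate 2. H2BC5 is annotated over 13228 bp. Its strongest peak was the H1-4 peak at its start in 4 libraries, and in the others a peak at the annotated start of H2BC6. Of the 55 genes, 10 are annotated at over 2 kb, and the median length was 495 bp.

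The first question for the lines was whether any EZH2 mutant closed or opened these genes. No histone gene was lost, meaning that both WT libraries had a peak and both mutant libraries lacked one. That was 0 of 36 in each of Y641F, A677G and H689A/F667I, where the share of all genes lost was 7.76%, 2.76% and 1.92%. No gene was gained, 0 of 19 in each mutant, where 0.06%, 0.165% and 0.33% of all genes without a WT peak gained one. Peaks found in all 4 WT and LOF libraries and in none of the 4 GOF libraries were absent at the histone genes, and made up 0.475% over all genes. The reverse was found at 0 of 19 histone genes and 0.0% of all genes. The interval's other 28 genes with WT peaks also showed 0 losses in each mutant, so the absence of losses was not particular to the histone genes within the interval. Across the 179 other regions of the interval with peaks in both WT libraries, including those away from genes, 13 were lost in H689A/F667I, 30 in A677G and 25 in Y641F. Of 26 such regions touching histone genes, 2 were lost in Y641F and 0 in the others. Over all regions of chromosomes 1 to 22 and X with peaks in both WT libraries, the share lost was 14.2% in H689A/F667I, 20.8% in A677G and 35.3% in Y641F. The 2 at histone genes were small internal peaks within the annotated bodies of H2AC6 (chr6:26125827-26126378) and H2BC11 (chr6:27127170-27127410), away from the 5′ ends.

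With peaks of a −log10 q of at least 5 alone, presence was no longer constant, with 10 genes in all 8 libraries and 20 in none. Of 33 histone genes with such a peak in both WT libraries, 9 then had none in either Y641F library, 12 none in A677G and 8 none in H689A/F667I. Over all genes these were 2865, 1573 and 1085 of 9618, or 29.8%, 16.4% and 11.3%. Among the interval's other genes they were 11, 5 and 8 of 27. In Y641F the histone share was thus near that of all genes, and in H689A/F667I the neighbours lost peaks at least as often. H2AC8, H2BC8, H2AC13 and H2BC13 were in all 3 sets. H3C1, H4C1, H4C5, H3C12, H2AC17 and H2BC17 were in the A677G set alone, although the difference between mutants was not tested. Many histone gene peaks thus lay below this cut in some libraries. This does not place them near the lower end of the lists, since the library median of the histone gene peaks ranked at the 68.4 to 82.6 percentile by −log10 p.

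The next question was how strong and how wide the peaks were. MACS2 gives each broad peak a fold over local background and a −log10 p, both averaged over the peak. Histone gene peaks were wide with a modest fold. In the WT libraries the median width over the 36 genes was 1768 and 1713 bp, against 1230 and 1215 bp over the 10201 genes with a peak in all 8 libraries and 1138 and 1089.5 bp over the interval's other 24. A peak shared by neighbouring genes enters the median of the 36 once per gene. With each peak taken once, all peaks in the regions touching histone genes had WT medians of 1620.5 and 1433 bp. At the 5′ ends of the interval's other genes these were 1095 and 900.5 bp. The median fold was 3.32 and 3.50 in the histone genes, 4.36 and 4.40 over all genes and 4.99 and 5.00 over the interval's others. The median −log10 p was 10.6 in both WT libraries, against 12.9 and 12.5 over all genes. Of all peaks of its library, the median histone peak ranked at the 68.4 to 82.6 percentile by −log10 p, and the median over all genes at the 72.7 to 89.3 percentile. Over the 36 genes and 8 libraries, width ran from 222 to 3129 bp, fold from 2.49 to 5.90 and −log10 p from 3.90 to 17.9.

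In the mutants the peaks were narrower. The mean of the library medians was 1741 ± 38.9 bp in WT, 1526 ± 74.6 bp in H689A/F667I, 950.5 ± 6.36 bp in Y641F and 1140 ± 16.6 bp in A677G (SD, n = 2 each). The GOF values lay below both WT values and below both LOF values. Over all genes the means of the same 4 lines were 1222.5, 1028.5, 832 and 946 bp. In the 24 regions open in all 8 libraries, peaks covered 40.9 and 39.9 kb in WT, 33.5 and 33.9 kb in H689A/F667I, 27.4 and 28.6 kb in Y641F and 28.0 and 31.6 kb in A677G. Both Y641F widths lay below both WT widths at 31 of 36 histone genes, or 86.1%, against 76.7% of all genes. The counts were 24, or 66.7%, against 63.1% in A677G and 18, or 50%, against 51.6% in H689A/F667I. In A677G and H689A/F667I these shares were near those of all genes. The number of peaks moved with it, since WT had the most peaks and Y641F the fewest, and its part in the widths was not tested. The gene-by-gene counts of histone genes take a shared peak for each of its genes, and shares per peak were not computed.

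**Figure D3:**
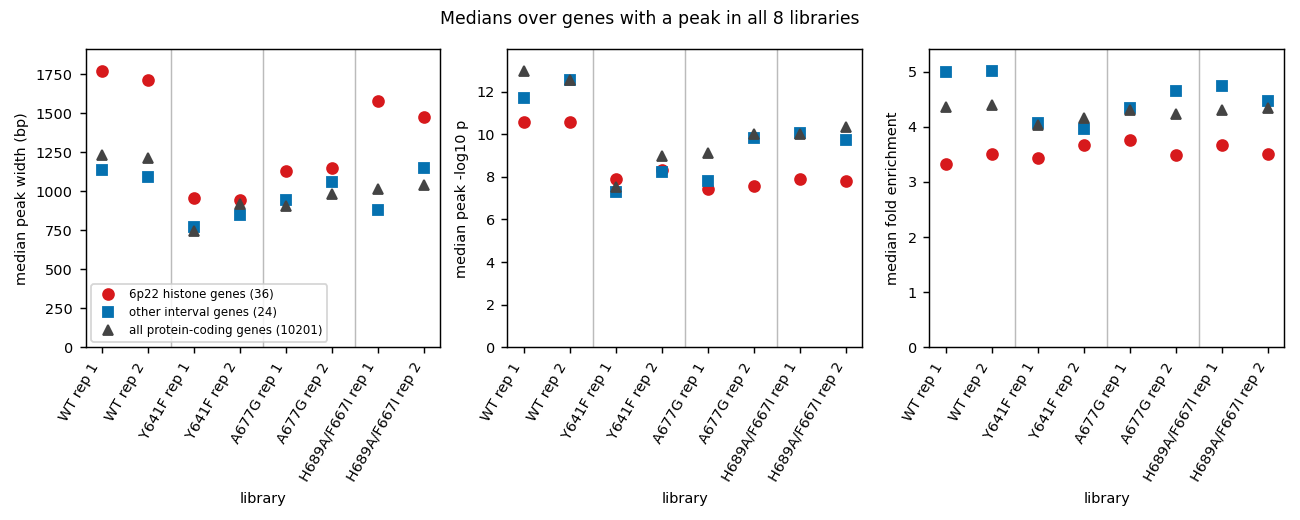
Median width (bp), −log10 p and fold enrichment (y axes, from 0) of the strongest peak in each library (x axis) over the 36 histone genes (circles), the 24 other genes of the interval (squares) and all 10201 genes with a peak in all 8 libraries (triangles). Histone gene peaks had the widest median in every library and the lowest median fold, and their median width ran from 946 bp in Y641F replicate 2 to 1768 bp in WT replicate 1. A peak shared by several genes counts for each of them.

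The types shared this pattern to unlike degrees. The H3 genes had median widths of 1794 and 1680 bp in WT, 1502 and 1311 bp in H689A/F667I, 948.5 and 901 bp in Y641F and 635 and 906 bp in A677G. For H2A the medians were 1935 and 2098 bp in WT, 1608 and 1766 bp in H689A/F667I, 1151 and 926.5 bp in Y641F and 1159 and 1046 bp in A677G. For H2B they were 1970 and 2140 bp in WT, 1348 and 1811 bp in H689A/F667I, 1514 and 917.5 bp in Y641F and 1242 and 1293 bp in A677G. In these types all 6 mutant medians were below both WT medians. For H4 the medians were 1630 and 1433 bp in WT, 1099 and 1254 bp in H689A/F667I, 826 and 1127 bp in Y641F and 1110 and 1252 bp in A677G. The same held for H4. The 3 H1 genes differed less, with 1669 and 1567 bp in WT and 1310 to 1615 bp in the mutants. With 3 to 10 genes a type, many sharing peaks, these differences were not tested.

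In some regions 1 WT peak corresponded to several peaks in mutant libraries. The region of H3C2 and H2AC4 (chr6:26031645-26033852) was 1 peak of 2116 and 2147 bp in WT and of 2096 bp in H689A/F667I replicate 1. In the other 5 libraries it was 2 peaks covering 1111 to 1392 bp together. The region of H3C12, H2AC17 and H2BC17 (chr6:27892769-27895744) was 1 peak of 2862 and 2784 bp in WT, and 2 peaks in Y641F replicate 2 and A677G replicate 1 and 3 peaks in A677G replicate 2. Of the 24 regions, the number held as 1 peak was 24 in each WT library and 22 or 23 in each mutant library.

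**Figure D4:**
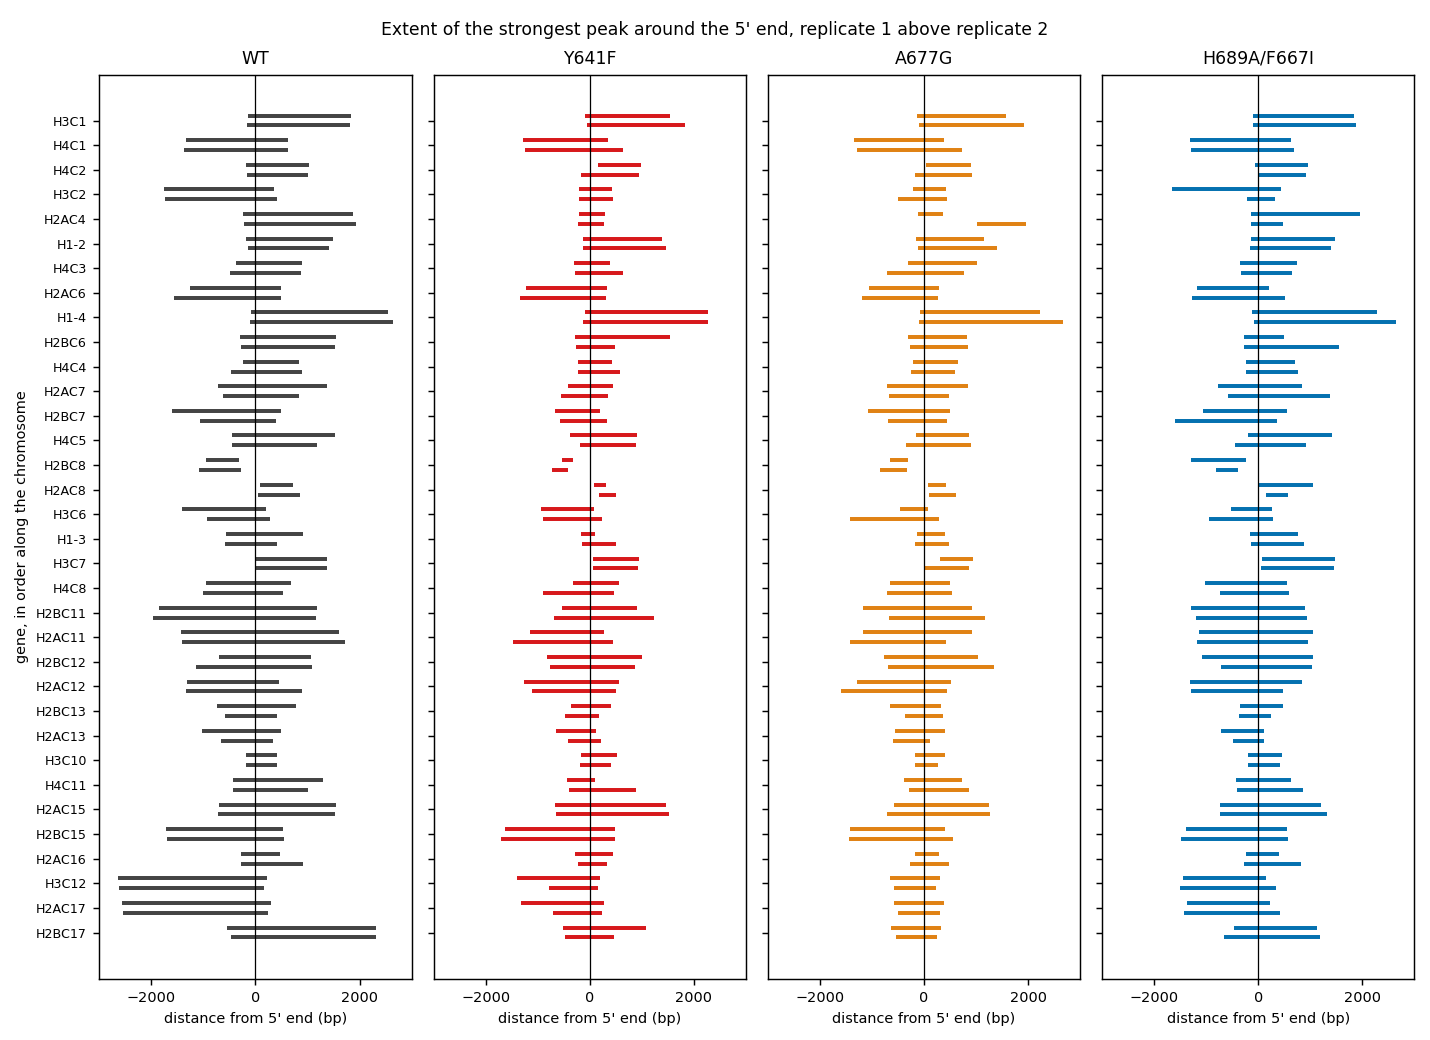
Extent of the strongest peak (horizontal bars) as distance in bp from the 5′ end (black line, positive into the gene) at 34 of the 36 histone genes with peaks, one panel per line and replicate 1 above replicate 2. H2BC4 and H2BC5 are not drawn, since in some libraries their strongest peak reached over 3 kb from the 5′ end. Most bars cross the 5′ end, and the bars of H3C12 and H2AC17 are longest in WT, at 2862 and 2784 bp.

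Strength was also lower than in WT. The mean of the library medians of −log10 p was 10.6 ± 0.00272 in WT, 7.86 ± 0.0906 in H689A/F667I, 8.12 ± 0.278 in Y641F and 7.50 ± 0.121 in A677G (SD, n = 2 each). Over all genes it was 12.7, 10.2, 8.25 and 9.56 in the same lines. Both mutant libraries lay below both WT libraries at 29, 33 and 33 of 36 histone genes in Y641F, A677G and H689A/F667I. These are 80.6%, 91.7% and 91.7%, against 83.5%, 72.6% and 65.2% of all genes and against 21, 21 and 23 of the interval's 24. The histone genes and their neighbours thus both lay above the share over all genes in A677G and H689A/F667I. In the histone shares a peak shared by several genes counts for each of them, and shares per peak were not computed.

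The fold showed another pattern. Its median over the histone genes was 3.41 ± 0.127 in WT, 3.59 ± 0.122 in H689A/F667I, 3.54 ± 0.166 in Y641F and 3.63 ± 0.196 in A677G (SD, n = 2 each). The 2 values of each mutant overlapped the WT range. Gene by gene, both mutant libraries were above both WT libraries at 16, 16 and 14 histone genes in Y641F, A677G and H689A/F667I. The shares were 44.4%, 44.4% and 38.9%, against 15.4%, 19.1% and 19.1% of all genes, and 2, 3 and 4 of the interval's 24. Both lay below WT at 11, 8 and 6 histone genes, or 30.6%, 22.2% and 16.7%, against 40.6%, 30.6% and 25.2% of all genes. The 3 comparisons share the WT libraries. A peak shared by several histone genes counts for each of them, so the histone counts and shares rest on fewer separate peaks than genes. Shares per peak were not computed, and the part of shared peaks in the gap to all genes was not tested. Fold is averaged over the peak, and the widths of these peaks were lower in the same libraries. The part of width in the fold was not tested.

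Log2 fold, centred on the median of each library, was then compared by limma over the 10201 genes with a peak in all 8 libraries. No histone gene passed an adjusted p of 0.05 (Benjamini-Hochberg over all genes) in any contrast. Against WT, 0 of 36 passed in Y641F, with 1.85% of all genes, 0 in A677G, with 0.0%, and 0 in H689A/F667I, with 0.0%. In the contrast of both GOF lines with WT and LOF, 0 of 36 passed, with 0.049% of all genes. At an unadjusted p under 0.05 there were 18, 5, 2 and 13 of the 36 in the same order, and 2237, 1441, 898 and 1832 of the 10201. Genes whose strongest peak is shared in all libraries have the same p and are each counted among the 36. The median log2 difference of the 36 was 0.05 in H689A/F667I, 0.11 in A677G, 0.16 in Y641F and 0.08 in the GOF contrast, against 0.01, 0.01, 0.02 and 0.01 over all genes. Without centring these medians of the 36 were 0.03, 0.07, 0.06 and 0.02, and leaving out 1 library each moved that of H689A/F667I between 0.02 and 0.08. Positive differences in the centred fit numbered 24, 28, 26 and 25 of the 36. The highest in Y641F, A677G and H689A/F667I were 0.48, 0.34 and 0.59, all at H2BC5. Its strongest peak was not in the same region in all libraries. With the 5′ end window for the histone genes too, the highest of the 36 were 0.44, 0.32 and 0.32.

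Log2 width in the same kind of limma fit, added after the data were seen, also gave 0 of 36 in each mutant. Over all genes 0.127% passed in Y641F, 0.0196% in A677G and 0.0% in the LOF line. At an unadjusted p under 0.05 there were 8, 5 and 0 of the 36. Relative to the library median, the median log2 width difference of the histone genes was -0.05 in H689A/F667I, -0.15 in A677G and -0.16 in Y641F, against 0.06, 0.08 and 0.05 over all genes. Without Y641F replicate 2 the value for Y641F was 0.02, and without H689A/F667I replicate 2 that for H689A/F667I was 0.05, so these 2 signs each rest on 1 library. The value for A677G stayed negative with any 1 library left out, from -0.204 to -0.065.

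**Figure D5:**
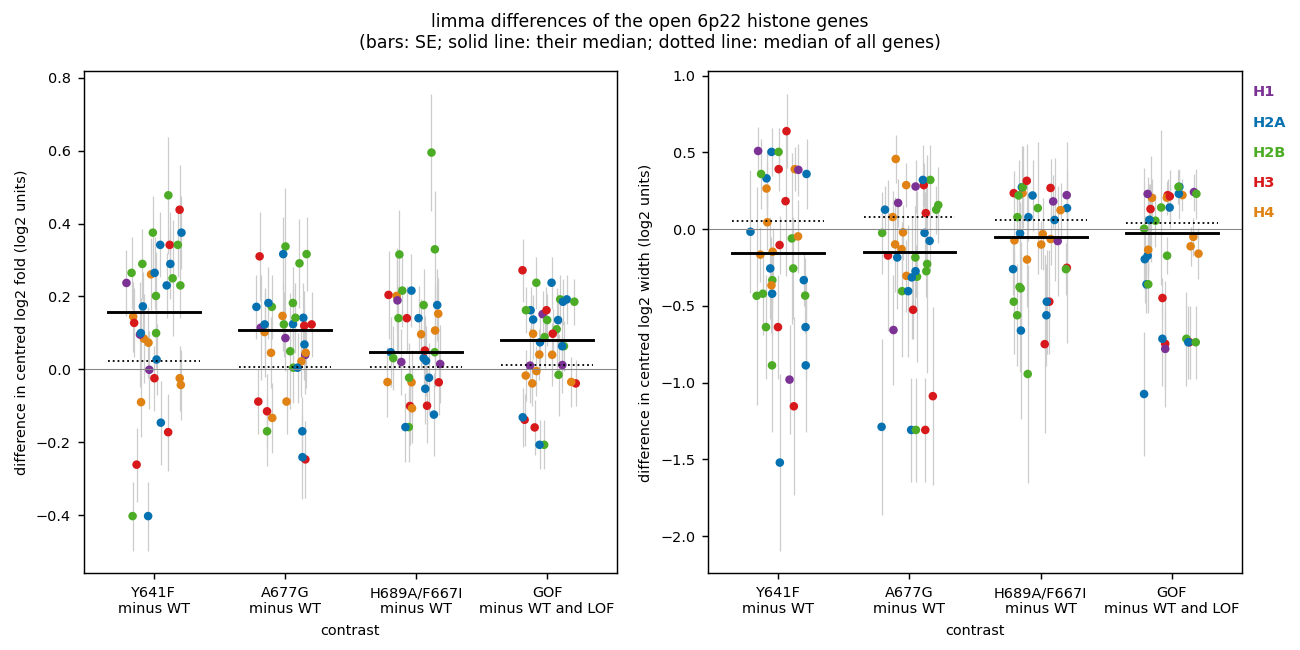
Differences of the 36 histone genes with peaks in log2 fold (left) and log2 width (right), both centred per library, for 4 contrasts (x axis), with SE bars from limma, point colour for histone type, a solid line at their median and a dotted line at the median of all genes. No point passed an adjusted p of 0.05, and the H2AC8 and H2BC8 points, which are 1 peak, are the lowest in fold at -0.40 in Y641F.

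H2AC8 and H2BC8 came nearest to the threshold. Their shared peak was the weakest of the H2A and H2B genes. Its fold was 4.85 and 5.18 in WT, 4.33 and 4.53 in H689A/F667I, 3.43 and 3.67 in Y641F and 4.14 and 4.56 in A677G. All 6 mutant values lay below both WT values. The log2 difference of Y641F from WT was -0.40 ± 0.095 (SE, limma, adjusted p = 0.0512). It passed without centring (-0.50, adjusted p = 0.0287), with quantile normalization (-0.42, adjusted p = 0.0486) and with every list cut to the length of the shortest (-0.41, adjusted p = 0.0441), all by limma. Over all settings of the fit on fold its adjusted p in limma ran from 0.0287 to 0.251. It was 0.305 by width and 0.604 by −log10 p. Its width was 628 and 818 bp in WT, 1042 and 422 bp in H689A/F667I, 222 and 310 bp in Y641F and 340 and 516 bp in A677G. The 2 LOF widths straddled WT, while the 4 GOF widths were below it.

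H2AC11 and H2BC11 shared the strongest peak of the H2A and H2B genes. Their −log10 p was 12.7 and 12.9 in WT, 10.1 and 12.02 in H689A/F667I, 12.2 and 10.98 in Y641F and 11.9 and 10.98 in A677G. The width was 3036 and 3129 bp in WT and 1433 to 2195 bp in the mutants. The fold was 2.93 and 3.09 in WT, 3.28 and 3.62 in H689A/F667I, 3.82 and 3.48 in Y641F and 3.82 and 3.49 in A677G. The peak was thus narrower with a higher mean fold in every mutant library. The log2 fold difference was 0.37 ± 0.101 in Y641F (SE, limma, adjusted p = 0.0686).

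H1-2, the strongest H1 peak, had similar widths in all lines. The width was 1669 and 1567 bp in WT, 1615 and 1558 bp in H689A/F667I, 1525 and 1593 bp in Y641F and 1310 and 1513 bp in A677G. The −log10 p was 13.6 and 13.6 in WT, 9.29 and 11.2 in H689A/F667I, 8.36 and 8.44 in Y641F and 10.5 and 7.96 in A677G, all 6 mutant values below WT. H1-3, the weakest, had widths of 1495 and 997 bp in WT, 925 and 1024 bp in H689A/F667I, 264 and 665 bp in Y641F and 538 and 666 bp in A677G. Its −log10 p was 9.58 and 8.82 in WT, 11.1 and 8.86 in H689A/F667I, 10.1 and 6.88 in Y641F and 6.48 and 10.1 in A677G. For H1-3 the GOF widths lay below WT, and the strengths overlapped in every line. H1-4 had the widest H1 peak, 2632 and 2748 bp in WT and 2309 to 2753 bp in the mutants. In every library it reached past the annotated start of H2BC5.

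Among the H3 genes, H3C2 had the strongest peak. Its −log10 p was 9.40 and 9.53 in WT, 6.67 and 11.6 in H689A/F667I, 9.33 and 10.9 in Y641F and 10.3 and 7.81 in A677G, so that the lines overlapped. Its fold was 2.80 and 2.88 in WT, 2.83 and 3.67 in H689A/F667I, 3.45 and 3.74 in Y641F and 3.71 and 3.17 in A677G. The fold was higher than in WT in all 4 GOF libraries and in H689A/F667I replicate 2. These were the libraries whose peak was the shorter fragment described above. The log2 fold difference was 0.44 ± 0.122 in Y641F (SE, limma, adjusted p = 0.0758). H3C7 had the weakest H3 peak. Its −log10 p was 9.71 and 6.87 in WT, 6.03 and 4.94 in H689A/F667I, 4.53 and 5.22 in Y641F and 4.36 and 4.32 in A677G. All 6 mutant values lay below both WT values, and no fold contrast of H3C7 passed, with a log2 difference of -0.25 ± 0.106 in A677G (SE, limma, adjusted p = 0.322).

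Among the H4 genes, H4C4 had the strongest peak of all 36. Its −log10 p was 17.9 and 12.6 in WT, 12.3 and 10.7 in H689A/F667I, 9.57 and 12.6 in Y641F and 9.74 and 13.002 in A677G. WT replicate 1 stood above the rest, and the other libraries overlapped. H4C11 had the weakest, with 6.89 and 8.32 in WT, 4.78 and 4.99 in H689A/F667I, 4.42 and 5.07 in Y641F and 3.90 and 4.80 in A677G. Every mutant value of H4C11 lay below both WT values. The log2 fold difference of H4C11 was -0.13 ± 0.097 in A677G (SE, limma, adjusted p = 0.569).

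The rest of the pathway was read from lists set by role. All 14 factors of histone gene transcription and 3′ end processing had a promoter peak in all 8 libraries, among them NPAT and its partner CASP8AP2, HINFP, and SLBP, which binds the mRNA stem-loop. Of 15 replication-dependent histone genes outside 6p22, 8 had a peak in all 8 libraries and 7 in none, with no mixed gene, as in 6p22. The 7 were H2AC18, H2AC19, H3C14, H3C15, H4C14, H4C15 and the testis gene H3-4. The first 6 are near-identical duplicated copies, where reads may map to more than one place. The 8 with peaks, some sharing 1 peak, had a median width of 2218 bp and a median fold of 3.18, from means over libraries. Wide peaks of modest fold were thus not particular to 6p22. Among the replication-independent histone genes, 8 had a peak in all 8 libraries and H3-5 in none. Others differed between libraries. H1-10 lacked a peak in both Y641F libraries and in A677G replicate 2, and H2AJ in Y641F replicate 1. The mixed histone genes were therefore all replication-independent, a difference that was not tested.

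In the interval itself the neighbours divided by family. Of 14 zinc finger genes, 13 had a peak in all 8 libraries, and ZSCAN16 had none. Of 6 butyrophilin genes, 4 had a peak in all 8, with BTN3A3 and BTN1A1 mixed. The 3 olfactory receptor genes had none, and of 4 SLC17A transporter genes 3 had none and SLC17A1 had a peak in 1 library. In limma, 3 of the 24 neighbours with peaks in all 8 libraries passed in Y641F against WT and 0 in the other contrasts, with a median log2 fold difference of -0.11 in Y641F against 0.16 for the histone genes.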

How the data were processed

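ATAC-seq of 8 HEK293T libraries, 2 for each of 4 lines, was analysed from the deposited broad peak lists. Groups and replicate numbers came from the sample titles. Per the study's methods and the submitters' processing notes, the authors trimmed reads with Trim Galore 0.6.5, aligned them to GRCh38/hg38 with BWA 0.7.17, removed duplicates and called peaks in each library with MACS2 2.2.7.1. The authors' deposited fold (a ratio over local background) and −log10 p and −log10 q come from MACS2, which averages them over a broad peak. Tn5 shift, mapping quality filter and caller thresholds are not given in the sources used here. Each list ends at a −log10 q slightly over 1. No counts were used, so depth is unknown and intervals cover counting error only. The study's count-based differential test was not repeated. Per the study's methods the 2 libraries of a line are independent biological replicates.

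Histone genes were taken from GENCODE 44 with 500 bp on each side, other protein-coding genes from 500 bp before to 1000 bp after the 5′ end. Overlap was 1 bp or more. A gene's value is that of its peak with the highest −log10 p. Log2 fold was centred on each library's median over the 10201 genes with a peak in all 8 libraries and fitted with limma 3.58.1 (R 4.3.3), all 8 libraries in 1 fit, called at an adjusted p of 0.05. The scripts were tested on simulated data. With changes of log2 0.5 or 1 planted in Y641F at 100 genes each, limma recovered 55 and 93. Changes of log2 0.5 were thus often missed. Uniqueness was counted as 32-base words that occur once in the reference genome, a measure added after seeing the data, as were the comparisons of libraries that do not overlap. The members and gene lists were chosen with earlier results of these data known. The genes named were those without a peak or with mixed presence, those of each type with the highest and lowest mean −log10 p, any called by limma, the testis genes and the H1 genes. Others were chosen after their values were seen. Some genes of the lists are not reported here. The alternatives tried were a −log10 q of at least 5, shortest-list length, other windows, other scalings, missing peaks imputed, a replicate block and leaving out each library.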

Additional observations from a re-analysis of the deposited data

Results flagged for a closer look

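H3C7 was 1 of 33 items examined, each a measure of a named gene or the median of the histone genes, and the 1 in which lines moved to opposite sides of WT in both libraries each. Its peak width was 1384 and 1375 bp in WT and 1407 and 1389 bp in H689A/F667I, so that the LOF values lay a few bases above both WT values. It was 883 and 856 bp in Y641F and 638 and 861 bp in A677G, all below WT. The mean of the LOF line exceeded that of the GOF lines by 588.5 bp. This difference between LOF and GOF was not itself tested. In limma on centred log2 width, H3C7 had a difference of -0.45 for the GOF lines against WT and LOF (adjusted p = 0.295), -0.53 for A677G against WT (adjusted p = 0.546) and 0.27 for H689A/F667I against WT (adjusted p = 0.937), none past the threshold. Groups of 2 libraries were too small for a check of single outlying libraries.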

How the results depend on the processing

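The counts of 0 genes gained and 0 closed or opened in all GOF libraries were the same under each window and peak threshold tried. Leaving out 1 library left 36 genes with a peak in every line and 0 lost. This could not come out otherwise, since each gene had a peak in all 8 libraries or in none. With a −log10 q of at least 5, genes with peaks were 33 in WT, 16 in H689A/F667I, 18 in Y641F and 12 in A677G, and 8, 9 and 12 were lost in the 3 mutants. With lists of equal length, 2 were lost in A677G (H3C7 and H4C11) and 1 in H689A/F667I (H4C11). With gene bodies extended by 1000 bp, 1 was lost in Y641F and 1 in H689A/F667I, H2BC9 in both. The cause was not tested. In limma, 2 histone genes (H2AC8 and H2BC8, 1 peak) were called in Y641F without centring, with quantile normalization and with lists of equal length, and 0 under the other settings.

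Calls over all genes were less stable. From 189, 0, 0 and 5 for Y641F, A677G, H689A/F667I and GOF, they became 518, 184, 128 and 323 with missing peaks imputed. Without centring they were 479 in Y641F and 45 in GOF, with higher calls 79 of 479 in Y641F against 124 of 189, and with quantile normalization 90 of 172. With a −log10 q of at least 5 they were 37 in Y641F and 2 in GOF, and with lists of equal length 1 in GOF. With only the 2 groups compared they were 0 in Y641F. By −log10 p they were 3 in A677G and 39 in GOF, by width 13 in Y641F, 2 in A677G and 20 in GOF, and by summed peak length 19, 1 and 12, the last 2 measures chosen after seeing the data. Leaving out 1 library each gave 0 to 254 in Y641F and 0 to 84 in GOF by fold. It gave 0 to 330 in Y641F, 0 to 17 in A677G, 0 to 3 in H689A/F667I and 0 to 132 in GOF by width, with a lone library assumed to vary like the others. For Y641F by fold, calls were 1 and 0 without WT replicate 1 and 2, 0 and 254 without Y641F replicate 1 and 2, 41 without either H689A/F667I library and 111 without either A677G library. For GOF they were 84 without Y641F replicate 2 and 0 without any other library.

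Same-numbered replicates did not deviate together (r from -0.014 to 0.046), so the numbers give no pairing. The replicate block gave 131 calls in Y641F and 7 in GOF by fold, 0 in Y641F, 0 in A677G and 1 in GOF by width (from 13, 2 and 20), and 98 in Y641F, 0 in A677G and 19 in GOF by −log10 p (from 200, 3 and 39), and 0 histone genes in each. The median log2 difference of the histone genes in Y641F was 0.16, and 0.06 without centring, and in GOF 0.08 and 0.02. Peak lists limit all of this, since a gene under the caller's threshold has no value.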
